A study of Mus musculus with 56 samples.

Results

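The genes described here carry glucose through glycolysis and in and out of glycogen in the tibialis anterior, the mouse muscle that lifts the foot. They were taken by name from a fixed list of 38 glycolysis and glycogen genes. Of these, 37 names were found among the 14870 genes of the deposited expression table, and Aldoc was not analysed here. The name Aldoa labels 2 genes, so 38 genes of 14870 were followed. All 38 had at least 1 CPM (a read count scaled to library size) on average over the 56 libraries, which 13017 genes reached and 1853 did not.

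The study asked what happens to skeletal muscle when titin, the giant elastic protein that spans each sarcomere, is cut. Each muscle received either saline or an adeno-associated virus (AAV) coding for TEV protease fused to green fluorescent protein. The titin mKO (mechanical knock-out) allele carries a site for that protease, so the virus is designed to cut titin in carriers of the allele, while titin of wild-type (WT) muscle has no such site. Cleavage itself was not measured in these data. Bulk RNA was sequenced at 3, 7 or 21 days after injection (dpi).

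WT muscle contributed 3 saline and 5 AAV libraries at 3 dpi, 3 and 4 at 7 dpi, and 4 and 4 at 21 dpi. Muscle homozygous for the titin mKO allele (HOMO) contributed 4 saline and 4 AAV libraries at 3 dpi, 4 and 5 at 7 dpi, and 4 and 4 at 21 dpi. Heterozygous titin mKO muscle (HET) was sampled at 7 dpi only, with 4 saline and 4 AAV libraries. The HOMO and HET saline controls carry the uncut allele. Animal age, sex and whether the libraries of a group came from separate animals are not given in the sources used here, so the p-values measure the spread between these samples, part of which may be technical.

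Glycolysis splits glucose into pyruvate in the cytoplasm and yields ATP without oxygen, and fast muscle such as the tibialis anterior depends on it for short, strong contractions. Glycogen is the fibre's glucose store: phosphorylase, switched on by phosphorylase kinase, releases glucose phosphate from it, and glycogen synthase builds it up again. Most steps exist in several gene forms. Adult fibres use a muscle form (Hk2, Pfkm, Aldoa, Pgam2, Eno3, Ldha, Pygm, Gys1), whereas a general form (Hk1, Pfkl, Pfkp, Pgam1, Eno1) serves most other cells and growing or immature cells. Here 15 genes were classed as muscle forms, 12 as general forms, and 11 as genes without such a partner. Pkm was put with the general forms because its gene-level count pools the adult M1 and the growth-associated M2 splice forms, which these values do not separate.

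Promoters of 3 genes are shown: the Pgam1 and Pgam2 pair, and the muscle form Eno3, whose general partner Eno1 is not printed. Each run covers 250 bases before to 50 bases after the RefSeq start, 5′ to 3′ on the gene's strand, in the GRCm38.p6 build. Capitals mark every match, on either strand, to the hypoxia core ACGTG, the E-box CANNTG or the MEF2 motif (searched by its consensus).
Pgam1, general form, plus strand, chr19:41911621-41911920: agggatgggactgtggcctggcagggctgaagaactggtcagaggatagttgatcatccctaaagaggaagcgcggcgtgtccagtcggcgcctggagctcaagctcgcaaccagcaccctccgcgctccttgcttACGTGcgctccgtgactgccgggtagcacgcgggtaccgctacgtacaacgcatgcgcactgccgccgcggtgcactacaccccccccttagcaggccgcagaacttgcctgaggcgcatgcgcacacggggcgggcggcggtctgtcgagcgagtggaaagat
Pgam2, muscle form, minus strand, chr11:5803747-5804046: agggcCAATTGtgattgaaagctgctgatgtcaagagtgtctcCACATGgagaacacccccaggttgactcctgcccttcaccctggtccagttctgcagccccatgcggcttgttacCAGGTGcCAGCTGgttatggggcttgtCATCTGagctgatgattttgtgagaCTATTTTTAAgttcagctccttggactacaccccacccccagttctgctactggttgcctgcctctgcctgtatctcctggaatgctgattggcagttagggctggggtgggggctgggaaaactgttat
Eno3, muscle form, plus strand, chr11:70656926-70657225: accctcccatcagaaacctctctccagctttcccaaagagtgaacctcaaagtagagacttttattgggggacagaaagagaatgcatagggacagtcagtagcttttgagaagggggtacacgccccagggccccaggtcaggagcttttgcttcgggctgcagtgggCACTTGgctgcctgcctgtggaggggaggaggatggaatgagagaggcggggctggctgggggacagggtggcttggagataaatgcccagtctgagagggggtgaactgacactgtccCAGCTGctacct

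The Pgam1 promoter holds 1 hypoxia core, at bases -114 to -110 from the start, and neither other motif. The Pgam2 promoter holds 5 E-boxes, of which the furthest lies at -245 to -240 and the nearest at -105 to -100, and a MEF2 match at -80 to -71. The Eno3 promoter holds E-boxes at -81 to -76 and at 38 to 43. Promoters were listed for 35 of the 37 names, 50 promoters in all, against 32851 for all genes. The hypoxia core was in 44% of the 50 and in 19.62% of all promoters, the E-box in 74% and 72.31%, and MEF2 in 6% and 3.187%. All 3 genes with a MEF2 match (Pfkfb1, Pgam2 and Ppp1r3a) are muscle forms. The hypoxia core was in 8 of 12 general, 6 of 13 muscle and 5 of 10 single genes. The E-box was in 6 of 12 general genes, Eno1 among them, in 11 of 13 muscle and in 9 of 10 single genes. These class counts take a match in any promoter of a gene. Counted that way, 21.78% of all genes had the hypoxia core, 74.99% the E-box and 3.704% the MEF2 motif. A match describes the letters of the window and shows no binding.

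The libraries held 6.901 to 27.18 M reads, with a median of 21.69 M. The shallowest was HOMO AAV 7 dpi replicate 2 and the next 14.98 M. Markers of the labelled tissue were high in every library: 8 genes of muscle fibre identity, such as Acta1, Ckm and Ttn, summed to 36820 to 84660 normalised counts. The transgene had 0 to 6 reads in each saline library and 56 to 34407 reads in each AAV library. On the first principal component, HOMO AAV 3 dpi replicate 4, WT AAV 3 dpi replicate 3, WT AAV 21 dpi replicate 2 and HOMO AAV 21 dpi replicate 4 stood apart from their groups. HOMO AAV 21 dpi replicate 1 had the highest value of all libraries, 102.0, against 33.99 to 77.78 in the rest of its group.

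Levels below are these normalised counts (CPM), and a change is the difference of mean log2(level + 1) between AAV and saline muscle, with its standard error from limma. That scale understates changes of low genes such as Hk3. A gene was called when its Benjamini-Hochberg adjusted p over 13017 genes was under 0.05. Whether a changed level reflects fewer cells of a type or less RNA per cell cannot be told apart in bulk muscle.

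In saline-injected muscle the 5 highest levels belonged to muscle forms. Across the 26 saline libraries, median levels per kilobase of exon were 4871 for Aldoa, 2976 for Eno3, 1962 for the phosphorylase gene Pygm, 1374 for Pgam2 and 1200 for Pfkm. The lowest were 0.4966 for Pfkp, 0.2727 for the liver phosphorylase Pygl and 0.0696 for Hk3. Pkm, at 658.2 per kilobase, was the only general form among the 10 highest. The ranges of neighbours in this order mostly overlapped, as for Pkm (538.9 to 713.7), Tpi1 (549.2 to 739.2) and Gapdh (574.9 to 714.0). Aldoa (4191 to 5349), Eno3 (2443 to 3351) and Pygm (1457 to 2243) did not overlap with each other.

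In AAV-injected titin mKO muscle most of these genes fell, among them nearly all of the muscle forms. Several general forms rose in HOMO muscle and, at 21 dpi, in WT muscle, but none was called higher in HET muscle. In HOMO muscle 4 genes rose and 24 fell at 3 dpi, where 34.6% of all genes tested were called. At 7 dpi 5 rose and 20 fell (43.1% of all genes called), and at 21 dpi 8 rose and 27 fell (59.3%). In HET muscle at 7 dpi no gene rose and 26 fell, against 40.4% of all genes called. The calls of all genes were split almost evenly, with 3863 higher and 3851 lower in HOMO muscle at 21 dpi and 2545 higher and 2714 lower in HET muscle. The median change of the 38 genes was -0.49, -0.42 and -0.80 in HOMO muscle at 3, 7 and 21 dpi and -0.51 in HET muscle. Over all genes tested the medians were -0.013, -0.0073, -9.3e-05 and -0.0051 in the same order.

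In WT muscle the virus changed none of the 38 genes at 3 or 7 dpi, where limma called 0% of all genes. At 3 dpi 3 of the 38 and 430 of all genes had an unadjusted p under 0.05, and at 7 dpi none of the 38 and 210 of all genes. edgeR called no gene at either day, and DESeq2 called 8 genes at 3 dpi and 7 at 7 dpi, none of them among the 38. At 21 dpi WT muscle differed from saline too: 7 of the 38 rose and 16 fell, with 40.9% of all genes called and a median change of -0.24 (all genes -0.013).

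**Figure D1:**
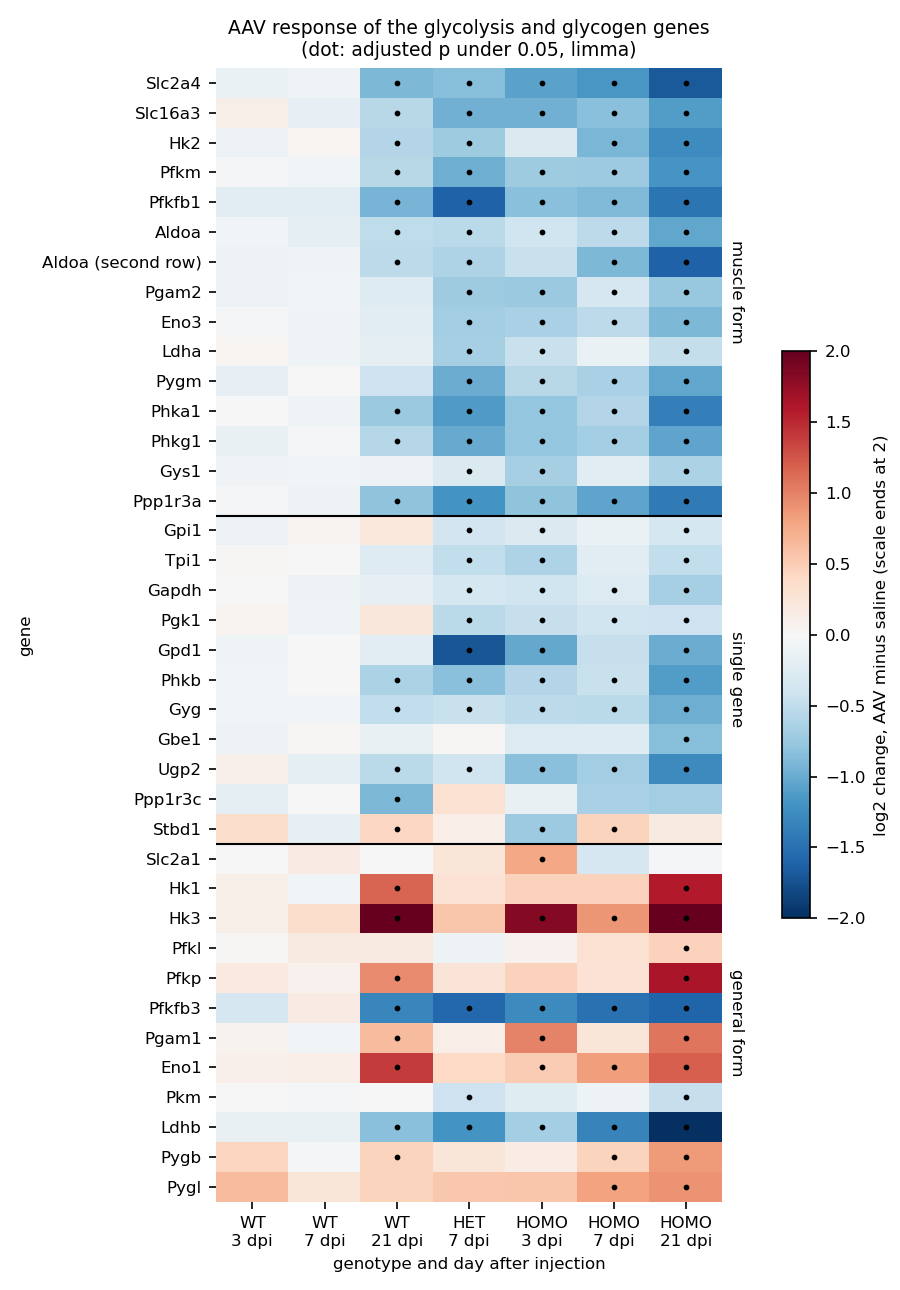
Change of each gene (rows) between AAV and saline muscle for each genotype and day (columns), as the difference of mean log2(normalised count + 1); blue is lower and red higher in AAV muscle, the colour scale ends at 2, and a dot marks an adjusted p under 0.05 (limma). The 15 muscle forms at the top carry no dot on a red cell, and in HOMO muscle at 21 dpi 8 of the 12 general forms at the bottom are red with a dot.

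By class, 13 of the 15 muscle forms fell in HOMO muscle at 3 dpi, 13 at 7 dpi and 15 at 21 dpi, all 15 fell in HET muscle, and 10 fell in WT muscle at 21 dpi. No muscle form rose on the deposited scale. The exceptions were Hk2 and the second Aldoa gene at 3 dpi, Ldha and Gys1 at 7 dpi, and Pgam2, Eno3, Ldha, Pygm and Gys1 in WT muscle. Leaving out 1 library at a time kept the count between 11 and 14, 12 and 13, 15 and 15, 13 and 15, and 8 and 11, in the same order. Of the 12 general forms, 4 rose and 2 fell in HOMO muscle at 3 dpi, 4 rose and 2 fell at 7 dpi, and 8 rose and 3 fell at 21 dpi. In HET muscle no general form rose and 3 fell, and in WT muscle at 21 dpi 6 rose and 2 fell.

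The scaling of the libraries bears on these counts. Most of the 8 fibre identity genes themselves fell: 7 in HOMO muscle at 3 and 7 dpi, 6 at 21 dpi, 6 in WT muscle at 21 dpi and 1 in HET muscle, with 1 rise in each comparison. When libraries were scaled to those 8 genes, the median of all genes moved to 0.35, 0.32 and 0.53 in HOMO muscle, 0.40 in WT muscle at 21 dpi and -0.02 in HET muscle. On that scale 8 of the 38 rose and 11 fell at 3 dpi, 12 and 11 at 7 dpi, 11 and 18 at 21 dpi, 15 and 2 in WT muscle at 21 dpi, and 0 and 26 in HET muscle. Quantile normalization gave 4 and 18, 5 and 14, 9 and 20, 10 and 10, and 0 and 21, in that order. Here and below, the share of all genes called on these 2 scales is not given, so such counts are not shown to be particular to the 38. Of the 15 muscle forms, 9, 8 and 12 still fell in HOMO muscle relative to the fibre genes, all 15 in HET muscle, and 2 in WT muscle at 21 dpi, where 2 others rose.

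Glucose enters fibres through the insulin-responsive transporter Slc2a4 (GLUT4) and, in most other cells, through Slc2a1 (GLUT1). At 21 dpi Slc2a4 stood at 456.5, 494.3, 513.3 and 465.0 in HOMO saline muscle and at 113.5, 136.0, 119.4 and 276.5 in HOMO AAV muscle. All AAV libraries were below all saline libraries, and the change was -1.67 ± 0.17 (adjusted p = 1.96e-11). The fall was already present at 3 dpi, from 501.2 to 578.8 in saline down to 196.1 to 338.3 in AAV muscle (-1.07 ± 0.17), and at 7 dpi (-1.17 ± 0.16). HET AAV libraries stood at 354.6, 266.1, 352.1 and 242.0 against 549.7, 624.4, 531.6 and 465.3 (-0.85 ± 0.17). WT AAV libraries at 21 dpi also lay below their controls, at 303.1, 365.7, 251.4 and 212.4 against 508.3 to 529.3 (-0.90 ± 0.17).

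Slc2a1 rose in HOMO muscle on 1 day only on the deposited scale. At 3 dpi it stood at 12.99, 14.62, 16.65 and 11.15 in HOMO AAV muscle and at 7.408, 6.877, 10.02 and 6.478 in saline muscle, without overlap (0.78 ± 0.16, adjusted p = 2.62e-04). At 7 dpi the change was -0.34 ± 0.16 (adjusted p = 0.0704), and at 21 dpi it was -0.03 ± 0.16. Relative to the fibre genes Slc2a1 rose at 21 dpi as well (0.50, adjusted p = 0.0129), and under quantile normalization it fell at 7 dpi (-0.43, adjusted p = 0.0257). The fall of its response from 3 to 7 dpi was itself called (-1.12 ± 0.23, adjusted p = 0.00132). Slc16a3, the transporter that exports lactate from fast fibres, fell in HOMO muscle on all 3 days, by 1.12 ± 0.20 on the log2 scale at 21 dpi, from 180.6 to 239.0 down to 66.24 to 144.1.

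Hexokinase traps glucose in the cell by phosphorylating it. Hk2, the insulin-responsive muscle form, stood at 336.6, 363.1, 382.5 and 354.5 in HOMO saline muscle at 21 dpi and at 105.6, 132.0, 150.4 and 242.0 in AAV muscle (-1.25 ± 0.14, adjusted p = 3.88e-10). At 7 dpi its AAV libraries lay between 173.8 and 220.9 against 333.7 to 422.9 (-0.92 ± 0.14). At 3 dpi 3 AAV libraries stood at 276.9, 291.6 and 277.7, but replicate 4 was at 382.9, just above the highest control at 381.2, and the change of -0.29 ± 0.14 did not pass (adjusted p = 0.114).

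Hk1, the form of brain and most other tissues, moved the other way. It stood at 8.341, 7.419, 7.533 and 8.915 in HOMO saline muscle at 21 dpi and at 44.15, 25.23, 25.75 and 15.95 in AAV muscle (1.58 ± 0.21, adjusted p = 1.17e-08). The groups did not overlap, and replicate 1 was the highest. In WT muscle at 21 dpi it also rose, from 9.113 to 11.01 up to 19.98, 12.59, 33.30 and 36.19 (1.17 ± 0.21). At 3 and 7 dpi the HOMO changes of 0.47 ± 0.21 and 0.46 ± 0.20 did not pass.

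Hk3, a hexokinase of blood leukocytes, was almost absent from saline muscle and gave the highest rise among the 38 genes. It stood under 1 in every saline library, so it reached the filter of 1 CPM on average only through AAV libraries. Its calls were also made when that filter was not applied. At 21 dpi its 4 HOMO saline libraries held 0.1979, 0.1039, 0.1453 and 0.2833 and its AAV libraries 29.71, 8.279, 10.94 and 3.884 (3.27 ± 0.30, adjusted p = 1.95e-12). It was already higher at 3 dpi, at 3.932, 5.731, 4.695 and 2.243 against 0.1078 to 0.6590 (1.84 ± 0.30), and lower again but still above controls at 7 dpi, at 1.110 to 2.422 (0.88 ± 0.29). That last call was lost with a pseudocount of 4 and with quantile normalization. WT AAV libraries at 21 dpi held 2.797, 1.478, 5.727 and 6.812 against 0.02357 to 0.2957 (2.01 ± 0.30).

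Per kilobase of exon, Hk1 made up 1.358% to 1.727% of the summed hexokinase level (Hk1, Hk2 and Hk3) in HOMO saline muscle at 21 dpi and 4.301% to 16.73% in AAV muscle. Hk3 made up 0.04571% to 0.1272% and then 2.427% to 26.08%. Hk2 thus remained the main hexokinase message in each of the 4 AAV libraries.

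Gpi1 converts glucose phosphate to fructose phosphate and has no muscle-specific partner. In HET muscle it fell from 816.1 to 856.3 down to 593.4 to 740.8, without overlap (-0.38 ± 0.10, adjusted p = 0.00182). That call was kept relative to the fibre genes (-0.40) and lost under quantile normalization (-0.20, adjusted p = 0.0513). It fell by 0.29 ± 0.10 at 3 dpi and by 0.35 ± 0.10 at 21 dpi on the log2 scale in HOMO muscle. Both calls were lost under quantile normalization and when only the groups compared were fitted. Relative to the fibre genes both changes lay above 0, at 0.12 (adjusted p = 0.217) and 0.24 (adjusted p = 0.00687). An opposite-strand gene overlaps 11.48% of its exon length.

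Phosphofructokinase commits sugar to glycolysis. The muscle form Pfkm stood at 3716, 3694, 3911 and 4136 in HOMO saline muscle at 21 dpi and at 1147, 1456, 1719 and 2944 in AAV muscle (-1.18 ± 0.15, adjusted p = 1.04e-08). In HET muscle it went from 4392, 4622, 4323 and 4281 to 2519, 1826, 2800 and 1969 (-0.97 ± 0.15), again without overlap. The platelet form Pfkp rose at 21 dpi in HOMO muscle, from 4.213, 5.631, 4.794 and 5.558 to 28.47, 16.33, 19.44 and 10.43 (1.63 ± 0.20, adjusted p = 1.95e-09). In WT muscle at 21 dpi Pfkp went from 4.973 to 7.984 up to 13.18, 9.108, 16.27 and 20.05 (0.94 ± 0.20).

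The liver form Pfkl passed in 1 comparison, HOMO at 21 dpi. There it stood at 10.55, 8.790, 9.525 and 9.656 in saline and at 19.79, 11.39, 13.09 and 11.45 in AAV muscle (0.46 ± 0.15, adjusted p = 0.00749). Without HOMO AAV replicate 1 this call was lost, as it was under quantile normalization and when only the groups compared were fitted. Per kilobase Pfkp remained under 1% of the phosphofructokinase messages, at 0.08806% to 0.6096% in those AAV libraries against 0.02821% to 0.03794% in saline.

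Fructose 2,6-bisphosphate, made and removed by the Pfkfb enzymes, is the strongest activator of phosphofructokinase. Both of its genes studied here fell. Pfkfb1, whose product occurs in liver and muscle forms, went from 57.56, 55.89, 54.22 and 54.57 to 26.60, 12.48, 21.91 and 12.50 in HET muscle (-1.62 ± 0.19, adjusted p = 4.66e-09). It fell on each day in HOMO muscle, and at 21 dpi went from 28.30, 28.70, 34.97 and 35.42 to 8.790, 7.679, 10.75 and 18.49 (-1.47 ± 0.19). Pfkfb3, the inducible form, also fell in those 4 comparisons and, like Pfkfb1, in WT muscle at 21 dpi, although it was classed as general.

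Pfkfb3 varied widely between libraries. At 21 dpi it stood at 446.9, 212.9, 185.8 and 245.8 in HOMO saline muscle and at 63.23, 79.63, 86.06 and 115.0 in AAV muscle (-1.60 ± 0.46, adjusted p = 0.00262). At 7 dpi the HOMO groups overlapped, with AAV libraries at 181.6, 54.18, 190.4, 58.58 and 177.4 against 184.4 to 458.5. At 3 dpi the call (-1.28 ± 0.46, adjusted p = 0.0264) was lost when any of 5 libraries was left out, under fibre-gene scaling and in DESeq2.

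Aldolase splits the 6-carbon sugar, and Aldoa is its muscle form. Its main gene stood at 13550, 13620, 14200 and 15160 in HOMO saline muscle at 21 dpi and at 4795, 5930, 7077 and 11230 in AAV muscle (-1.03 ± 0.15, adjusted p = 1.04e-07). It fell in HOMO muscle at 3 dpi (-0.40 ± 0.15) and 7 dpi (-0.52 ± 0.14), in HET muscle (-0.53 ± 0.15) and in WT muscle at 21 dpi (-0.51 ± 0.15). Under quantile normalization its 4 changes in HOMO and WT muscle turned above 0 and none passed, and relative to the fibre genes the change at 3 dpi was 0.017. A second gene also named Aldoa (ENSMUSG00000114515), which lies just upstream on the same strand of chromosome 7, stood at 5.004, 5.465, 7.741 and 5.384 and then at 0.9003, 0.9709, 0.5929 and 3.024 (-1.62 ± 0.21). Reads that the 2 genes share cannot be apportioned from these values.

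The single-form enzymes after aldolase fell by less. In HOMO muscle at 21 dpi the changes were -0.49 ± 0.12 for Tpi1, -0.67 ± 0.12 for Gapdh and -0.41 ± 0.11 for Pgk1, which interconvert the 3-carbon sugars and make the first ATP. Gapdh, often used as a reference gene, went from 2376, 2523, 2547 and 2508 to 1220, 1302, 1556 and 2415, and the groups overlapped through replicate 4. In HET muscle the 3 genes changed by -0.49 ± 0.12, -0.35 ± 0.12 and -0.54 ± 0.11, and all 3 passed. In WT muscle at 21 dpi none of the 3 passed, with 0.22 ± 0.11 for Pgk1. The direction in HOMO muscle at 21 dpi depended on the scaling: relative to the fibre genes Tpi1 was at 0.096 and Pgk1 at 0.18, under quantile normalization Tpi1 was at 0.035 and Gapdh at 0.026, and none of these 4 values passed. The HOMO calls of Tpi1 and Pgk1 at 21 dpi were also lost when only the groups compared were fitted.

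The forms of phosphoglycerate mutase, which moves the phosphate within the 3-carbon acid, diverged at 3 dpi. Pgam1 stood at 14.10, 15.11, 17.16 and 16.10 in HOMO saline muscle and at 37.26, 36.73, 36.88 and 20.94 in AAV muscle (1.00 ± 0.18, adjusted p = 2.32e-05). Pgam2, the muscle form whose E-box and MEF2 matches are printed above, went from 1160, 935.7, 1024 and 1133 to 686.5, 574.5, 497.4 and 812.9 (-0.74 ± 0.15, adjusted p = 1.03e-04). Neither pair of groups overlapped.

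Pgam1 did not pass at 7 dpi. Its 5 HOMO AAV libraries then held 17.61, 18.42, 17.18, 17.65 and 17.30 against 17.28, 13.75, 16.15 and 12.58 in saline (0.23 ± 0.17, adjusted p = 0.257). At 21 dpi it was high again, at 59.01, 23.11, 25.94 and 19.15 against 11.41 to 14.96 (1.06 ± 0.18). The drop from 3 to 7 dpi (-0.76 ± 0.24, adjusted p = 0.0483) and the rise from 7 to 21 dpi (0.83 ± 0.24, adjusted p = 0.0163) both passed. In WT muscle at 21 dpi Pgam1 rose by 0.63 ± 0.18, with AAV libraries at 24.89, 16.39, 24.27 and 25.04. Pgam1 has 2 annotated pseudogene copies, with which its reads could be shared.

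Enolase forms the next intermediate, phosphoenolpyruvate. Eno3, the muscle form, went from 4396, 4639, 5211 and 4856 to 1801, 2146, 2692 and 4182 in HOMO muscle at 21 dpi (-0.89 ± 0.14, adjusted p = 7.85e-07). Eno1, the general form, went from 63.59, 62.65, 68.21 and 68.37 to 291.2, 116.4, 141.2 and 111.1 (1.20 ± 0.18, adjusted p = 3.43e-07). At 3 dpi the rise of Eno1 (0.50 ± 0.18) overlapped its controls and was lost when any of 4 libraries was left out. Eno1 also rose at 7 dpi, to 118.1, 123.4, 134.8, 112.7 and 127.4 from 66.85 to 71.58 (0.83 ± 0.18). Its highest rise was in WT muscle at 21 dpi, from 64.73, 69.61, 69.27 and 70.82 to 147.9, 115.3, 218.9 and 298.3 (1.40 ± 0.18, adjusted p = 6.77e-08), where Eno3 changed by -0.22 ± 0.14 and did not pass. In HET muscle the Eno1 libraries did not overlap, at 100.2 to 125.1 against 76.52 to 90.12, but the change of 0.40 ± 0.18 did not pass (adjusted p = 0.0759).

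Eno1 made up 0.4214% to 0.4655% of the per-kilobase level of Eno1 and Eno3 in HOMO saline muscle at 21 dpi and 0.8516% to 4.968% in AAV muscle. Eno3 therefore still supplied most enolase message in every AAV library. An intronless copy of Eno1, Eno1b, is annotated, and reads of the pair could be divided between them.

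Pkm makes pyruvate and the last ATP. It did not rise in any comparison on the deposited scale. It stood at 3009, 3018, 3465 and 3304 in HOMO saline muscle at 21 dpi and at 1700, 2152, 2436 and 3266 in AAV muscle (-0.46 ± 0.12, adjusted p = 7.40e-04). In HET muscle it fell from 3424 to 3551 down to 2663, 2366, 3091 and 2366 (-0.42 ± 0.12), and in WT muscle at 21 dpi it did not pass (adjusted p = 0.996). Relative to the fibre genes the HOMO change at 21 dpi turned to 0.13 (adjusted p = 0.190), and under quantile normalization to 0.23 (adjusted p = 0.0180). That call was also lost when only the groups compared were fitted. A gene model on the same strand covers 15.34% of the exon length of Pkm.

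**Figure D2:**
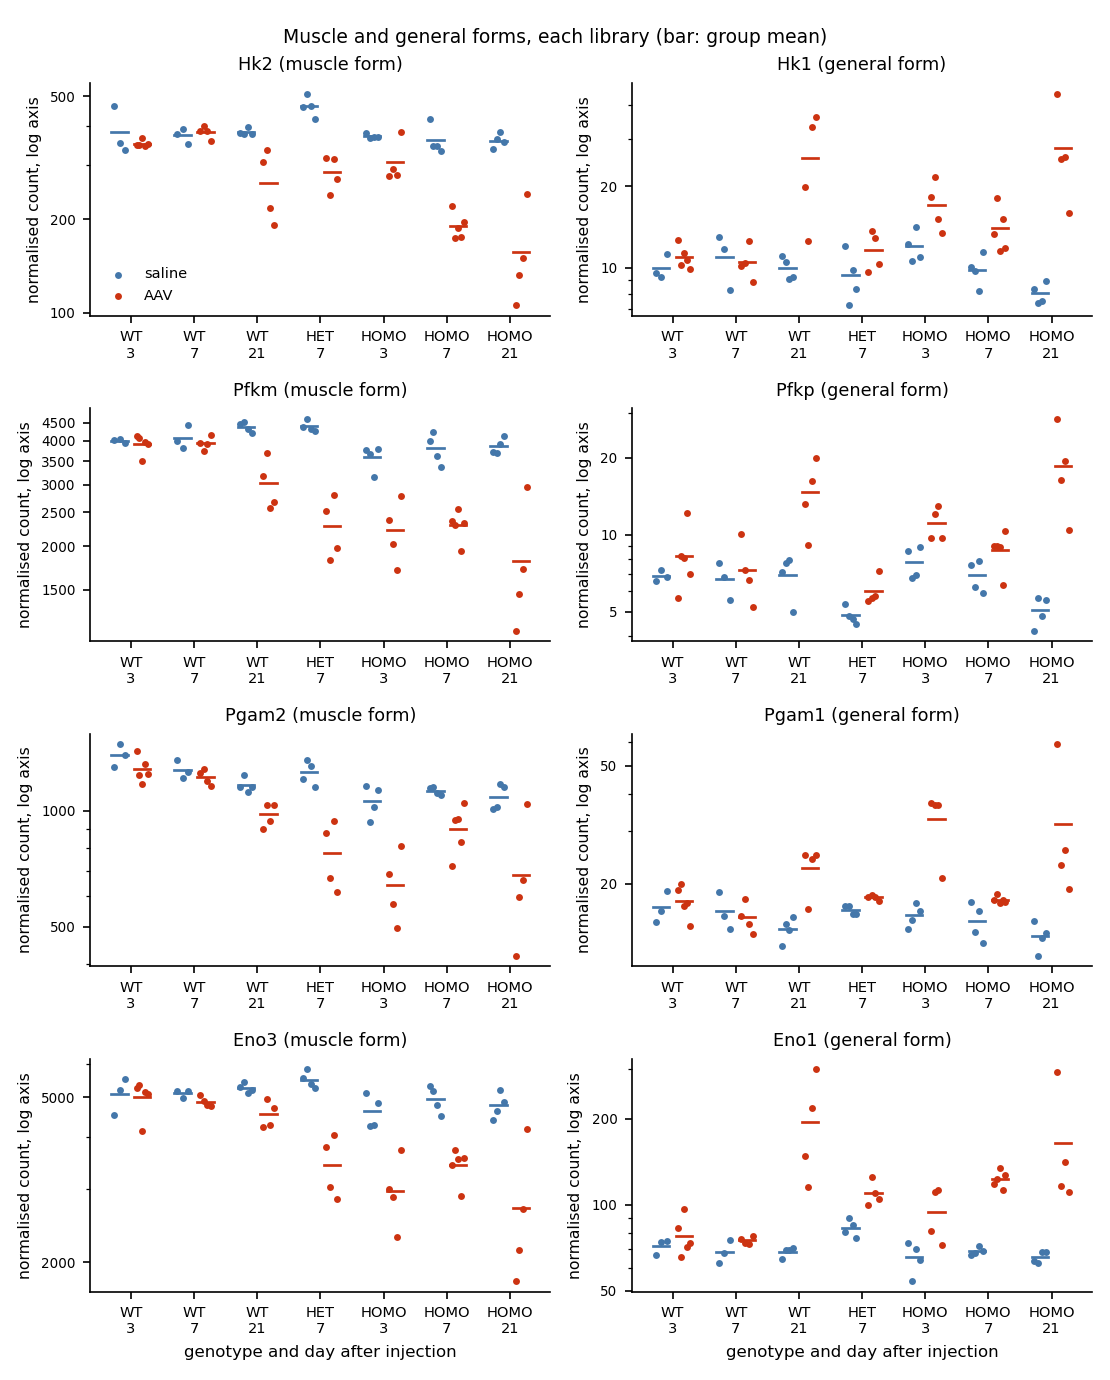
Normalised counts (CPM) (log axis) of 4 muscle forms (left) and their general partners (right) in every library, by genotype and day after injection; blue points are saline, red points AAV muscle, and bars are group means. In HOMO muscle at 21 dpi all 4 AAV libraries of Hk2, Pfkm and Eno3 lie below the saline libraries, and all 4 of Hk1, Pfkp, Pgam1 and Eno1 lie above them.

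Lactate dehydrogenase converts pyruvate to lactate and back. The 2 forms are used differently, Ldha by fast glycolytic fibres and Ldhb by oxidative fibres and heart. Ldhb stood at 152.6, 125.7, 118.8 and 109.0 in HOMO saline muscle at 21 dpi and at 43.82, 18.59, 10.94 and 56.37 in AAV muscle (-2.18 ± 0.27, adjusted p = 2.25e-09), the deepest fall of the 38 genes in that comparison. At 7 dpi it went from 111.1, 109.2, 101.4 and 111.1 to 38.39, 31.07, 64.29, 35.53 and 49.94 (-1.33 ± 0.25), and in HET muscle from 111.4 to 128.4 down to 40.67 to 64.22 (-1.19 ± 0.27). At 3 dpi the call (-0.69 ± 0.27, adjusted p = 0.0411) was lost when any of 6 libraries was left out, under quantile normalization (adjusted p = 0.0819) and relative to the fibre genes (adjusted p = 0.409).

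Ldha changed less, from 2020, 2132, 2529 and 2371 to 1171, 1449, 1791 and 2254 in HOMO muscle at 21 dpi (-0.48 ± 0.12, adjusted p = 9.50e-04), with overlap. It fell in HET muscle without overlap, from 2512 to 2739 down to 1393 to 1966 (-0.66 ± 0.12). At 7 dpi in HOMO muscle it did not pass (-0.13 ± 0.12, adjusted p = 0.378). Relative to the fibre genes the change at 21 dpi was 0.11 (adjusted p = 0.331), and under quantile normalization 0.22 (adjusted p = 0.0451). The Ldha call at 21 dpi was also lost when only the groups compared were fitted.

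Gpd1 makes glycerol phosphate from a glycolytic intermediate and feeds the shuttle that carries reducing power into mitochondria. It was the 1 gene of the 38 whose HET and HOMO responses differed on the deposited scale. In HET muscle it went from 686.8, 640.9, 640.9 and 631.6 to 255.0, 134.1, 307.8 and 142.7 (-1.72 ± 0.21, adjusted p = 1.53e-08), without overlap. In HOMO muscle at the same day it went from 386.4, 594.7, 521.6 and 530.8 to 357.6, 343.1, 416.4, 301.1 and 409.6 and did not pass (-0.47 ± 0.20, adjusted p = 0.0560). The 2 responses differed by 1.25 ± 0.29 (adjusted p = 0.00673). At 3 and 21 dpi the HOMO response was -1.03 ± 0.21 and -0.99 ± 0.21. An antisense gene overlaps 12.97% of the Gpd1 exon length.

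Glycogen breakdown starts with phosphorylase, whose muscle form Pygm is the gene lost in McArdle disease. Pygm went from 5691, 5892, 6803 and 6932 to 1858, 2614, 3364 and 5421 in HOMO muscle at 21 dpi (-1.04 ± 0.18, adjusted p = 2.20e-06). In HET muscle it went from 6415, 6210, 6900 and 6512 to 3492, 2435, 4405 and 3071 (-0.99 ± 0.18). The brain form Pygb rose at 21 dpi in HOMO muscle, from 4.043, 5.008, 5.084 and 5.950 to 17.11, 8.774, 9.790 and 6.132 (0.85 ± 0.17, adjusted p = 3.31e-05). The liver form Pygl went from 1.329, 2.099, 0.9754 and 2.289 to 9.150, 2.948, 4.118 and 1.801 (0.90 ± 0.24, adjusted p = 0.00118), with overlap. This Pygl call was lost when only the groups compared were fitted. At 7 dpi Pygl stood at 3.389, 4.074, 2.765, 4.206 and 3.491 against 0.9356 to 2.312 and also passed (0.80 ± 0.23).

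Phosphorylase kinase, the calcium-sensitive enzyme that turns phosphorylase on, lost message for all 3 subunits studied. The muscle forms Phka1 and Phkg1 and the shared subunit Phkb changed by -1.36 ± 0.19, -1.06 ± 0.15 and -1.12 ± 0.14 in HOMO muscle at 21 dpi. In HET muscle the changes were -1.13 ± 0.19, -1.01 ± 0.15 and -0.84 ± 0.14, and in WT muscle at 21 dpi -0.75 ± 0.19, -0.58 ± 0.15 and -0.63 ± 0.14. Each passed in these 3 comparisons and in HOMO muscle at 3 and 7 dpi. The calls in HET muscle and in HOMO muscle at 21 dpi were kept under quantile normalization and relative to the fibre genes. In WT muscle at 21 dpi all 3 were lost relative to the fibre genes (-0.29, -0.12 and -0.17), and that of Phkg1 also under quantile normalization. In HOMO muscle at 7 dpi Phka1 and Phkb lost their calls under both, and at 3 dpi Phkb lost its call relative to the fibre genes (-0.17, adjusted p = 0.223). Phka1 went from 659.2, 782.4, 892.5 and 865.1 to 160.2, 279.6, 389.3 and 514.1 in HOMO muscle at 21 dpi, without overlap. The responses of Phka1 and Phkb deepened from 7 to 21 dpi in HOMO muscle, by -0.78 ± 0.26 and -0.67 ± 0.20.

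On the building side, glycogenin (Gyg) primes the chain, Ugp2 makes the activated glucose, Gys1 adds it and Gbe1 branches it. All 4 fell in HOMO muscle at 21 dpi, by 0.98 ± 0.09, 1.27 ± 0.15, 0.63 ± 0.12 and 0.86 ± 0.16 on the log2 scale. Relative to the fibre genes the calls of Gys1 (-0.041, adjusted p = 0.700) and Gbe1 (-0.27, adjusted p = 0.135) were lost. Gyg fell without overlap in all 5 comparisons that had calls, though 3 of these calls were lost relative to the fibre genes, and at 21 dpi it went from 293.7, 349.3, 360.2 and 354.9 to 135.3, 169.5, 171.0 and 220.7 (adjusted p = 1.95e-12). Ugp2 at 3 dpi went from 911.4, 841.7, 1129 and 1132 to 453.8, 509.7, 495.4 and 828.5 (-0.84 ± 0.15). Gbe1 passed in no other comparison, and its change in HET muscle was 0.02 ± 0.16. Gys1 in HET muscle (-0.29 ± 0.12, adjusted p = 0.0460) lost its call under quantile normalization, when the replicate number was entered as a block, in edgeR and in DESeq2.

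Targeting subunits hold protein phosphatase 1 on the glycogen particle. Ppp1r3a, the muscle subunit, fell in all 5 comparisons and went from 363.5, 357.7, 337.4 and 351.0 to 203.9, 132.9, 219.6, 123.3 and 189.5 in HOMO muscle at 7 dpi (-1.05 ± 0.17, adjusted p = 4.32e-06). Ppp1r3c, a more widely expressed subunit, spread widely between libraries, from 69.92 to 410.8 in the 3 WT saline libraries at 7 dpi. It passed only in WT muscle at 21 dpi (-0.89 ± 0.36, adjusted p = 0.0432), a call lost when any of 7 libraries was left out.

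Stbd1, which tethers glycogen to membranes for breakdown in lysosomes, fell at 3 dpi and rose at 7 dpi on the deposited scale. At 3 dpi it stood at 75.74, 44.69, 54.18 and 70.13 in HOMO saline muscle and at 38.37, 38.75, 24.64 and 44.76 in AAV muscle (-0.73 ± 0.17, adjusted p = 6.02e-04). At 7 dpi it went from 67.76, 63.30, 66.10 and 50.58 to 79.83, 92.00, 89.41, 87.86 and 73.04 (0.44 ± 0.16, adjusted p = 0.0190). The difference of 1.17 ± 0.23 between these responses passed (adjusted p = 8.16e-04). The groups overlapped at 3 dpi, through saline replicate 2, and did not at 7 dpi, where leaving out saline replicate 4 ended the call. Relative to the fibre genes the fall at 3 dpi was lost (-0.32, adjusted p = 0.121), while the change at 7 dpi was 0.82 (adjusted p = 9.43e-05) and that at 21 dpi 0.76 (adjusted p = 2.01e-04).

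**Figure D3:**
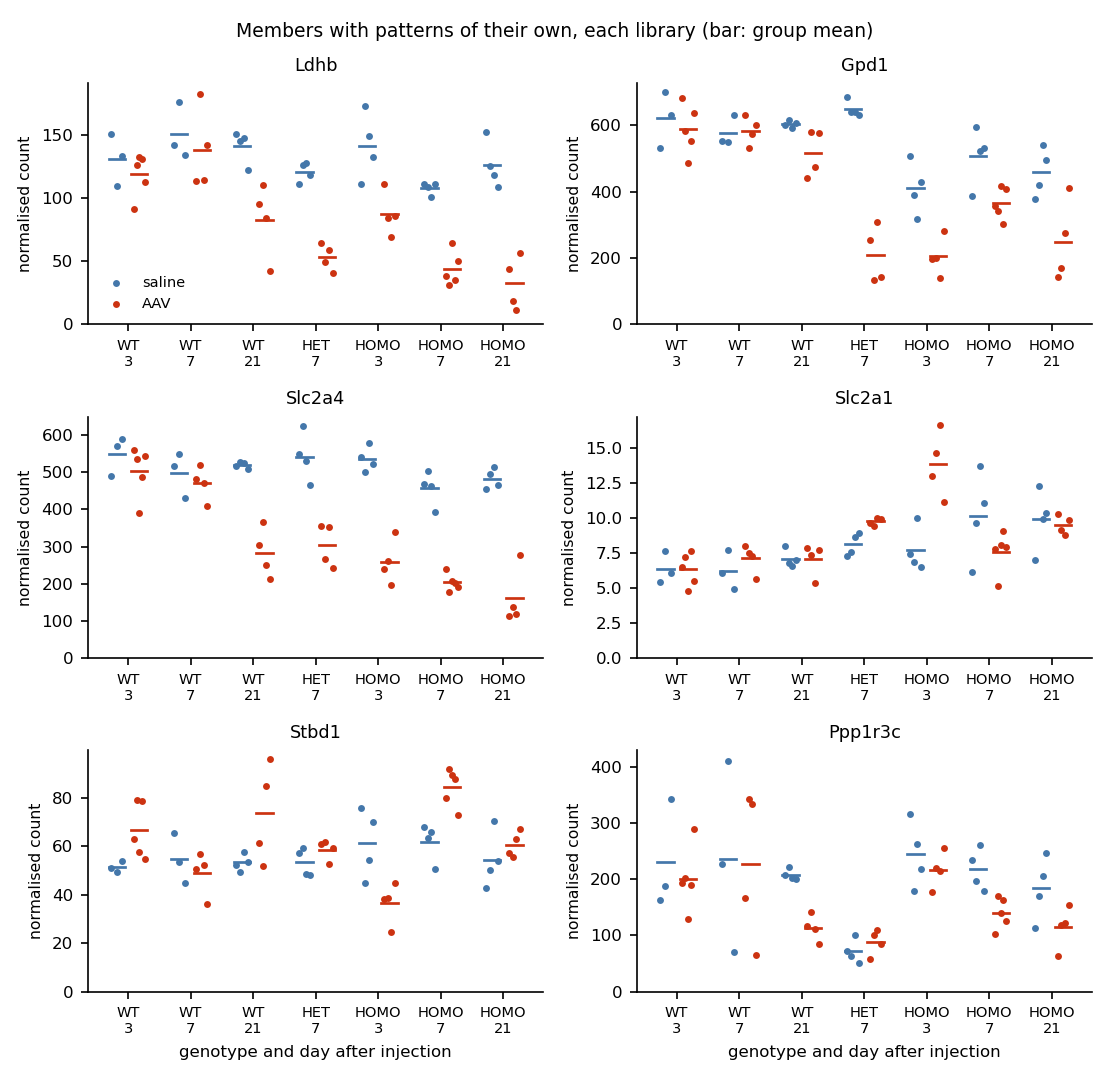
Normalised counts (CPM) of Ldhb, Gpd1, Slc2a4, Slc2a1, Stbd1 and Ppp1r3c in every library, by genotype and day after injection, on linear axes from 0; blue points are saline, red points AAV muscle, and bars are group means. The Gpd1 panel shows HET AAV libraries at 134.1 to 307.8, below HOMO AAV libraries of the same day at 301.1 to 416.4 with a slight overlap.

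To compare forms within a library, log2 of the general over the muscle form was taken for 10 pairs. A constant of 1 was added to each level first, so the ratio depends little on the library's scaling for abundant genes and more for low ones such as Pygl. It shows unequal change, not which form moved. The ratio was higher in AAV muscle for 8 of 10 pairs in HOMO muscle at 3, 7 and 21 dpi and in WT muscle at 21 dpi, and for 9 of 10 in HET muscle. In 4, 8 and 7 pairs in HOMO muscle, 8 in WT muscle at 21 dpi and 8 in HET muscle, every AAV library was above every saline library. The same held for 0 pairs in WT muscle at 3 dpi and 2 at 7 dpi. Pairs of other genes were not counted, so no share stands beside these numbers. The median change of the 10 ratios was 0.96, 1.03 and 1.86 in HOMO muscle, 0.88 in WT muscle at 21 dpi and 1.05 in HET muscle, against 0.16 and 0.17 in WT muscle at 3 and 7 dpi. The pairs share Pfkm and Pygm, so they are not independent.

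The 3 highest ratio changes were at 21 dpi in HOMO muscle. Hk1/Hk2 moved from -5.32 ± 0.17 (SD, n = 4) to -2.48 ± 1.07 (SD, n = 4). Pfkp/Pfkm moved from -9.33 ± 0.15 to -6.52 ± 1.12, and Eno1/Eno3 from -6.16 ± 0.06 to -4.07 ± 1.07 (SD, n = 4 each). In each of these the groups did not overlap, and the exact two-sided permutation p was 0.02857, the smallest that 4 against 4 allows. Adjusted over the 70 tests (10 pairs in 7 comparisons), the lowest exact permutation p was 0.05128, so no pair passed. limma fitted to the same ratios called 42 of the 70, which pools the spread over all groups.

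The pairs did not all go one way. Ldhb/Ldha fell, from -4.16 ± 0.33 to -5.86 ± 1.10 in HOMO muscle at 21 dpi and from -4.47 ± 0.12 (SD, n = 4) to -5.67 ± 0.37 (SD, n = 5) at 7 dpi, without overlap on either day. Pfkfb3/Pfkfb1 showed no shift beyond its spread, with changes between -0.60 ± 0.39 and 0.38 ± 0.45 (SE) over the 7 comparisons. Pgam1/Pgam2 moved by 1.74 ± 0.28 at 3 dpi, 0.57 ± 0.27 at 7 dpi and 1.82 ± 0.28 at 21 dpi. Slc2a1/Slc2a4 moved by 1.85 ± 0.27 at 3 dpi, 0.82 ± 0.25 at 7 dpi and 1.64 ± 0.27 at 21 dpi.

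**Figure D4:**
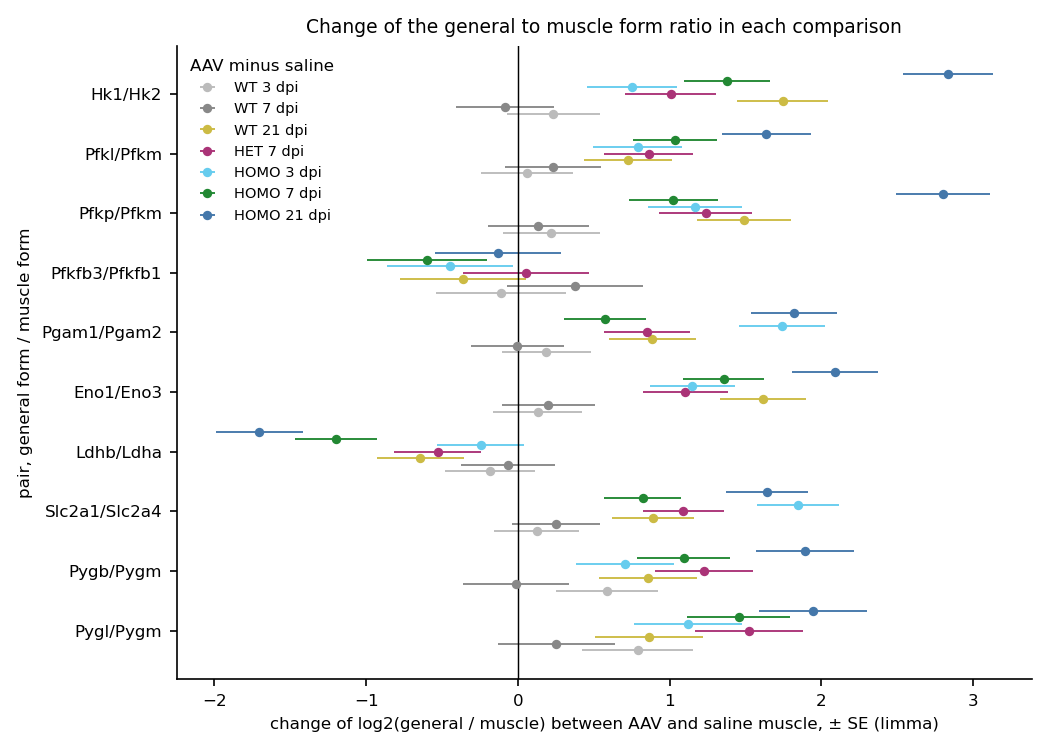
Difference between AAV and saline muscle in mean log2(general / muscle form) for 10 pairs (rows), with the standard error from limma as bars and 1 colour per genotype and day. Points right of 0 mean more general relative to muscle form; the rightmost are Hk1/Hk2 at 2.835 and Pfkp/Pfkm at 2.805, both HOMO at 21 dpi, and Ldhb/Ldha lies left of 0 in all 7 comparisons.

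Genotypes were compared by testing whether AAV responses differed. At 3 dpi the HOMO response was above the WT response for 3 of the 38 genes and below it for 13, with 9.75% of all genes called. The 3 were Hk3 (1.73 ± 0.43), Pgam1 (0.93 ± 0.25) and Slc2a1 (0.79 ± 0.24), and the furthest below were Slc16a3 and Stbd1 (-1.07 ± 0.29 and -1.07 ± 0.24). At 7 dpi no gene was above and 8 were below (20.2% of all genes), led by Ldhb (-1.18 ± 0.38), Slc2a4 (-1.08 ± 0.24) and Hk2 (-0.96 ± 0.20). At 21 dpi no gene was above and 9 were below (5.62%), led by Ldhb (-1.34 ± 0.38) and the second Aldoa gene (-1.10 ± 0.30). Hk1, Pfkp, Pgam1 and Eno1 were not among them at 21 dpi, so their HOMO and WT rises were not shown to differ.

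These counts depended on single libraries. At 3 dpi the number fell to 5 without HOMO AAV replicate 3 and rose to 21 without replicate 4. At 21 dpi it fell to 2 without WT AAV replicate 2 and rose to 25 without HOMO AAV replicate 4. Under fibre-gene scaling the genes above and below were 3 and 4 at 3 dpi, 2 and 3 at 7 dpi and 0 and 5 at 21 dpi, and under quantile normalization 3 and 5, 2 and 6, and 1 and 9.

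The HET response at 7 dpi was below the WT response for 17 genes and above it for none (20.2% of all genes called). The largest differences were Gpd1 (-1.73 ± 0.31, adjusted p = 9.16e-05) and Pfkfb1 (-1.41 ± 0.28), and all 3 phosphorylase kinase subunits were among them. Without HET AAV replicate 4 the number was 9. HOMO and HET responses differed only in Gpd1 (3.24% of all genes called). On the fibre-gene scale 20 genes were higher in the HOMO than in the HET response and none lower. Under quantile normalization 6 were higher and none lower. For neither scale is the share of all genes called given. These counts are therefore not shown to be particular to the genes followed here.

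The level of the transgene moved with genotype and day. At 7 dpi it was 157.9 to 323.6 in WT, 56.90 to 113.6 in HET and 14.32 to 29.00 in HOMO AAV muscle. At 3 dpi it was 3.313 to 48.38 in WT and 31.18 to 80.58 in HOMO muscle, and at 21 dpi 110.9 to 1267 and 127.4 to 1103. The part of transgene level in the differences between genotypes was not tested.

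Across days, 4 of the 38 responses differed between 3 and 7 dpi in HOMO muscle (5.96% of all genes called): Stbd1 was higher at 7 dpi, and Slc2a1, Pgam1 and Hk2 (-0.63 ± 0.20) were lower. Between 7 and 21 dpi 4 were higher, namely Hk3 (2.38 ± 0.42), Pfkp (1.33 ± 0.27), Hk1 (1.12 ± 0.29) and Pgam1, and 3 were lower, namely Phka1, Phkb and Gyg (13.8% of all genes). Without HOMO AAV 21 dpi replicate 1 the 7 became 3, and without replicate 4 they became 28. Relative to fibre genes 4 were higher and none lower. In WT muscle 4 were higher at 21 than at 7 dpi (Hk3, Eno1, Hk1 and Pfkp, by 1.66, 1.27, 1.22 and 0.86) and 4 lower (Slc2a4, Phkb, Hk2 and Gyg), with 19.2% of all genes called. That number was 16 without WT AAV 21 dpi replicate 2 and 4 without replicate 4. Under quantile normalization the split was 7 higher and 0 lower, and relative to fibre genes 10 and 0. The share of all genes called on these 2 scales is not given, so such splits are not shown to be particular to the 38.

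Saline muscle with the mKO allele was compared with WT saline muscle of the same day. HOMO and WT saline muscle differed in none of the 38 at 3 dpi (2.28% of all genes called) and none at 7 dpi (2.08%), while 7 and 2 had an unadjusted p under 0.05. At 21 dpi 1 differed (3.32%). That gene was Pfkfb1, at 28.30 to 35.42 in HOMO and 47.50 to 52.15 in WT saline muscle (-0.64 ± 0.19, adjusted p = 0.0479). It lay lower without overlap on the other 2 days as well, at 26.07 to 35.72 against 41.14 to 48.35 and 27.97 to 30.90 against 42.07 to 57.92, where it did not pass. The Pfkfb1 call was lost with a pseudocount of 0.25, under quantile normalization, in edgeR, with the replicate block and with any 1 of the 8 libraries left out. HET and WT saline muscle differed in none (0.200% of all genes), with 2 at an unadjusted p under 0.05. edgeR called 0, 1 and 0 of the 38 in the 3 HOMO comparisons and 1 in HET, and DESeq2 0, 2, 1 and 1. Relative to fibre genes, whose summed level was 72220 to 84660 in HOMO and 67310 to 72040 in WT saline muscle, 15, 8 and 20 of the 38 were lower in HOMO muscle and none higher. The share of all genes called on that scale is not given here, so these falls are not shown to be particular to the 38.

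Markers of other cells moved with these changes. The summed level of 14 macrophage markers was 42.81 to 172.4 in saline libraries and 374.0 to 1017, 323.2 to 524.1 and 325.7 to 2989 in HOMO AAV muscle at 3, 7 and 21 dpi. It was 236.4 to 430.9 in HET AAV muscle, 342.5 to 1119 in WT AAV muscle at 21 dpi, and 129.7 to 328.6 and 69.01 to 147.9 in WT AAV muscle at 3 and 7 dpi. All 14 rose in HOMO muscle on each day and in WT muscle at 21 dpi, and 13 rose in HET muscle. In these comparisons 34.6%, 43.1% and 59.3% of all genes were called in HOMO, 40.9% in WT and 40.4% in HET muscle. Markers of T and natural killer cells summed to 46.84 to 169.6 in HOMO and 17.79 to 92.82 in WT AAV muscle at 21 dpi, against at most 2.860 in saline muscle, and all 9 tested rose in both. No macrophage marker was at 0 reads throughout any group, and 4 of 10 T and natural killer cell markers were at 0 reads in all WT saline libraries at 3 dpi.

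Within groups, HOMO AAV 21 dpi replicate 1 had the highest macrophage sum, 2989, and the highest Hk1, Hk3, Pfkp, Pgam1, Eno1, Pygb and Pygl of its group. Replicate 4 had the lowest sum, 325.7, and the highest Slc2a4, Hk2, Pfkm, Aldoa, Pgam2, Eno3 and Pygm. At 3 dpi HOMO AAV replicate 4 had the lowest macrophage sum, 374.0 against 761.1 to 1017, and the lowest Pgam1 and Hk3 of its group. Other groups were mixed. HOMO AAV 7 dpi replicate 4 had the highest sum, 524.1, and the highest Hk3, Pygb and Pygl, but the lowest Eno1 (112.7) and Pfkp (6.355). In WT AAV muscle at 21 dpi replicate 3 had the highest sum, 1119, and the highest Pygl. Replicate 4 there, at 1024, had the highest Hk1, Hk3, Pfkp, Pgam1, Eno1 and Pygb. Endothelial markers, by contrast, fell: 4, 6 and 6 of 6 in HOMO muscle, 6 in WT muscle at 21 dpi and 5 in HET muscle. Of 7 fibroblast markers 4 rose and 1 fell in HOMO muscle at 3 dpi, and 6 rose in each other of these comparisons. Developmental fibre genes rose for 4 or 5 of 5 in HET muscle, in HOMO muscle at 7 and 21 dpi and in WT muscle at 21 dpi, and for none in HOMO muscle at 3 dpi. The 13 fast fibre genes had lower sums in AAV muscle without overlap in all 5 comparisons that had calls, HET muscle included: 93260 to 134600 against 158000 to 165300 there, and 58870 to 118700 against 154500 to 173200 in HOMO muscle at 21 dpi. Of the 13, 12, 9 and 10 fell in HOMO muscle at 3, 7 and 21 dpi and 7 in WT muscle at 21 dpi, and in HET muscle 7 fell and 1 rose. Under quantile normalization 3 rose and 3 fell in HOMO muscle at 21 dpi. Sums of 7 slow fibre genes overlapped their controls in all 5 comparisons, at 345.7 to 507.1 against 252.9 to 382.2 in HOMO muscle at 21 dpi. Satellite cell marker sums were higher without overlap in each but HOMO muscle at 3 dpi, and were 19.52 to 75.38 against 8.944 to 11.14 in HOMO muscle at 21 dpi. Sums of 2 neutrophil markers, all low, were higher without overlap in all 5. The part of fibre type genes or of any of these cells in the changes of glycolysis and glycogen genes was not tested.

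**Figure D5:**
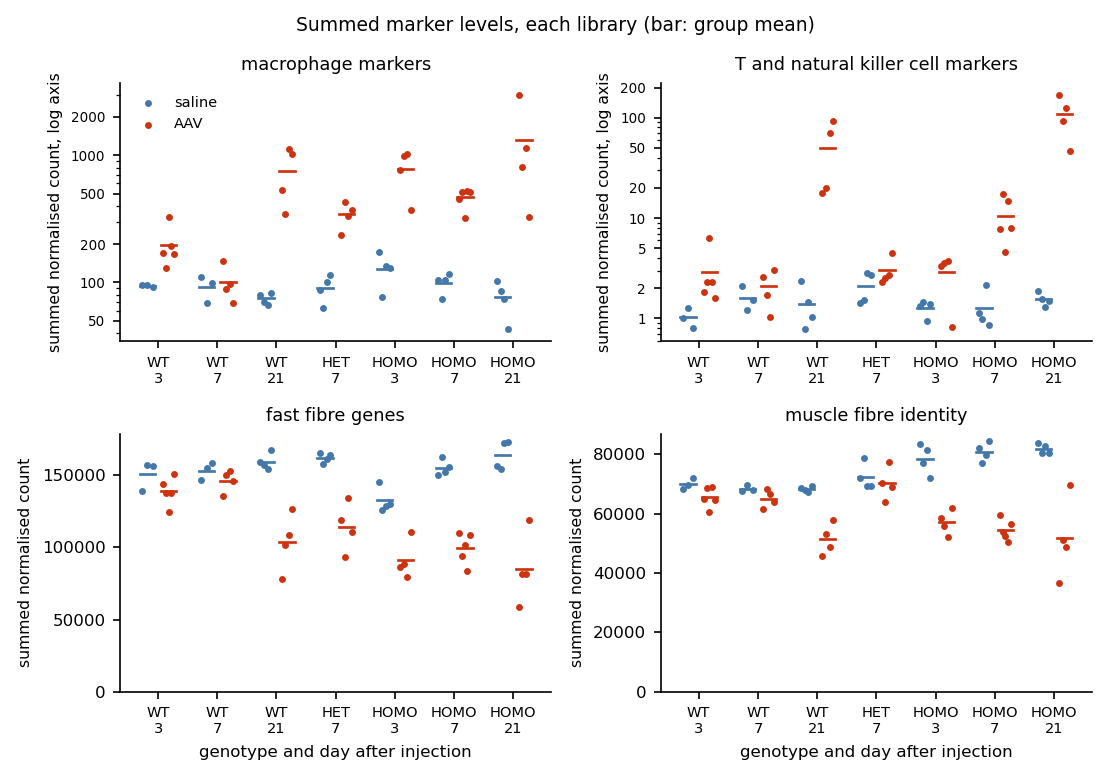
Summed normalised counts (CPM) of macrophage markers and of T and natural killer cell markers (log axes, top) and of fast fibre genes and muscle fibre identity genes (linear axes from 0, bottom) in every library; blue points are saline, red points AAV muscle, and bars are group means. Macrophage sums in HOMO AAV muscle at 21 dpi span 325.7 to 2989, while HET AAV libraries keep fibre identity sums of 64050 to 77620, overlapping their controls at 69350 to 78880, and fast fibre sums of 93260 to 134600, below their controls at 158000 to 165300.

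Further genes of the pathways were counted in lists that hold none of the 38. Of 16 other glycolysis genes, 5 rose and 9 fell in HOMO muscle at 21 dpi, and 3 rose and 7 fell in HET muscle. The shares of all genes called were 59.3% and 40.4%. Gpd2, the mitochondrial partner of Gpd1 in the glycerol phosphate shuttle, changed by -1.58 ± 0.19, Fbp2, the muscle enzyme of the reverse step of phosphofructokinase, by -1.98 ± 0.30, Tigar, which removes fructose 2,6-bisphosphate, by -1.23 ± 0.18 and Ldhd, which oxidises D-lactate, by -0.99 ± 0.13 in HOMO muscle at 21 dpi. Eno2, the neuronal enolase, rose by 1.04 ± 0.17, and is named here after its value was seen.

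Where pyruvate enters mitochondria, 1 of 13 genes rose and 10 fell in HOMO muscle at 21 dpi and in HET muscle. Of all genes, 59.3% and 40.4% were called in these comparisons. The falls with the smallest p at 21 dpi were Pdha1 (-1.38 ± 0.11), Dld (-1.02 ± 0.10), subunits of pyruvate dehydrogenase, Mpc2 (-1.24 ± 0.13), a pyruvate carrier, and Pdk2 (-1.36 ± 0.14), a kinase that turns the dehydrogenase off. Pdk3, another such kinase, was the only rise (1.45 ± 0.23). Of 19 other glycogen genes tested, 5 rose and 10 fell in HOMO muscle at 21 dpi, where 59.3% of all genes were called. Pgm2l1 changed by -1.62 ± 0.15 and Ppp1cb, a catalytic subunit of protein phosphatase 1, by -0.96 ± 0.11. Prkaa2, a catalytic subunit of AMP-activated kinase, changed by -1.16 ± 0.14 and Epm2a, the glycogen phosphatase laforin, by -1.13 ± 0.14.

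The pentose phosphate pathway, which branches off glucose phosphate and supplies NADPH and ribose, had more rises than falls: 6 of 11 genes rose and 2 fell at 21 dpi in HOMO muscle, 4 and 0 at 3 dpi, and 5 and 0 at 7 dpi. The shares of all genes called were 59.3%, 34.6% and 43.1% in the same order. At 3 and 7 dpi the number called lay near those shares, so it is not shown to be particular to the pathway. Pgd rose by 1.14 ± 0.14, G6pdx by 1.42 ± 0.22 and Tkt by 1.24 ± 0.23 at 21 dpi, while Prps1 fell by 0.53 ± 0.10. The count at 21 dpi was 4 and 3 under quantile normalization. Of 25 regulators of glucose and hypoxia responses, 4 rose and 14 fell at 21 dpi, where 59.3% of all genes were called. The oxygen sensor Egln1 changed by -1.51 ± 0.13, Epas1 by -1.38 ± 0.16, Eya1 by -1.06 ± 0.14 and Mef2d by -0.51 ± 0.07. Relative to fibre genes the counts of genes that rose and fell at 21 dpi were 7 and 4 for other glycolysis, 1 and 7 for pyruvate entry, 9 and 5 for other glycogen, 9 and 0 for pentose phosphate and 11 and 5 for regulators.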

How the data were processed

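Bulk RNA of 56 tibialis anterior samples in 14 groups was extracted with TRI reagent and made into libraries with a directional kit, per the labels' protocols. FastQC, Bowtie, RSEM and limma are named in the submitters' processing notes, with the GRCm38 build. How strand was treated in counting is not stated. The deposited table holds a linear signal per gene, which the authors scaled to an effective library size. Values are in CPM of that size, with 0.5 added to the reads, and whole reads were recovered for 99.99855% of them within 0.02 reads. All 56 columns matched a sample, and 0 columns were left out. Read totals ranged from 6.901 to 27.18 M.

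log2(value + 1) was fitted with limma 3.58.1 in R 4.3.3 over all 14 groups, for genes averaging 1 CPM or more. p-values were adjusted by Benjamini-Hochberg over 13017 genes, in 19 comparisons. edgeR 4.0.16 (quasi-likelihood) and DESeq2 1.42.0 were run on the recovered reads as alternatives. The scripts were tested on simulated data. Isoform ratios were tested with exact two-sided permutation tests, adjusted over 70. Other scalings, filters, pseudocounts, designs and left-out libraries were tried. Promoters came from RefSeq (GRCm38.p6), gene positions and exon lengths from GENCODE M21, and figures were drawn with matplotlib 3.10.9 in Python 3.11.15.

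The members, isoform pairs and gene lists were chosen with earlier results of these data known. Library values are given for isoform pairs and for up to 4 genes each way per HOMO response with the largest change and no overlap; of other lists, up to 4 called genes with the smallest p are named, and further genes were named after their values were seen, as were library values of further members, including overlapping groups and HET and WT muscle. Groups share replicate numbers. Of 26 same-numbered saline and AAV pairs, 12 correlated over 0.1 in their deviations from the group means (range -0.2409 to 0.3107), and in 2 of the 7 AAV comparisons every pair did. The labels name no shared animal, so the fit has no block.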

Additional observations from a re-analysis of the deposited data

Results flagged for a closer look

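In groups of 4 or 5 libraries, a library was picked out when its gap to the next exceeded the 95% critical value of Dixon's test, which chance does in about 1 of 20 groups. This happened in 23 of 456 groups of gene levels and 3 of 120 groups of isoform ratios. HOMO AAV 3 dpi replicate 4 was high for Hk2 (382.9), Pfkfb3 (169.3), Phkg1 (359.4) and Ugp2 (828.5) and low for Pgam1 (20.94). The same library was high for log2 Pfkfb3/Pfkfb1 (2.748) and low for Pygb/Pygm (-9.357). HOMO AAV 21 dpi replicate 4 was high for Slc2a4 (276.5) and the second Aldoa gene (3.024), and replicate 1 for Pgam1 (59.01) and Eno1 (291.2). WT AAV 21 dpi replicate 2 was high for Phka1 (694.5) and Phkg1 (483.7) and low for Pgam1 (16.39). WT AAV 3 dpi replicate 3 stood apart for Hk2 (366.2), Pgk1 (719.4) and Eno3 (4150). HET AAV libraries were picked out for Pfkp (7.216, replicate 4) and Pygb (8.694, replicate 2), and WT AAV 7 dpi replicate 4 for Pfkl/Pfkm (-9.059). Among saline libraries these were Hk2 (422.9, HOMO 7 dpi replicate 1), Pfkm (3159, HOMO 3 dpi replicate 3), the second Aldoa gene (7.741, HOMO 21 dpi replicate 3), Gyg (293.7, HOMO 21 dpi replicate 1), Gpd1 (686.8, HET replicate 1) and Phkg1 (603.2, WT 21 dpi replicate 1).

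Responses that differed between genotypes or days, by limma's test of the difference itself, were counted in 8 comparisons. HOMO and WT responses differed for 16 genes at 3 dpi, among them Hk3 (1.728) and Slc16a3 (-1.074), for 8 at 7 dpi, among them Ldhb (-1.184) and Slc2a4 (-1.085), and for 9 at 21 dpi, among them Ldhb (-1.342) and the second Aldoa gene (-1.103). HET and WT responses differed for 17 genes, among them Gpd1 (-1.732) and Pfkfb1 (-1.407), and HOMO and HET responses for 1, Gpd1 (1.25). Between days, 4 HOMO responses differed from 3 to 7 dpi, among them Stbd1 (1.171) and Slc2a1 (-1.118), and 7 from 7 to 21 dpi, among them Hk3 (2.382) and Pfkp (1.333). In WT muscle 8 differed from 7 to 21 dpi, among them Hk3 (1.656) and Eno1 (1.267). Causes of these values were not tested.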

How the results depend on the processing

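Of 137 calls followed, 77 held under every setting and every library left out, 24 were lost with at least 1 library left out, 56 under at least 1 other setting, and 15 changed direction. With only the groups compared in the fit, HOMO muscle lost the calls of Gpi1 and Aldoa at 3 dpi. At 21 dpi HOMO muscle lost those of Gpi1, Pfkl, Tpi1, Pgk1, Pkm, Ldha and Pygl, and WT muscle those of Pygb and Stbd1. Direction changes came from 2 scalings, and the cause was not tested. Relative to fibre genes these were, in HOMO muscle, Gpi1 0.1176, Aldoa 0.01696 and Gapdh 0.01818 at 3 dpi, Gapdh 0.1004 and Pgam2 0.03961 at 7 dpi, and Gpi1 0.2405, Tpi1 0.09584, Pgk1 0.177, Pkm 0.1312 and Ldha 0.1116 at 21 dpi. Under quantile normalization they were Aldoa 0.1016 and Ldha 0.03287 at 3 dpi, Aldoa 0.2403 and Gapdh 0.1554 at 7 dpi, Aldoa 0.1279, Tpi1 0.03544, Gapdh 0.02554, Pkm 0.2269 and Ldha 0.2158 at 21 dpi, and Aldoa 0.189 in WT muscle at 21 dpi.

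Counts of members called that moved over 1.5 times were as follows, and the cause was not tested. The share of all genes called under each of these settings is not given here. HOMO minus WT at 3 dpi (16) became 8 by quantile, 7 by fibre genes, 10 with the replicate block and 10 in edgeR. At 7 dpi (8) it became 5 by fibre genes and 17 with only the groups compared, and at 21 dpi (9) 5, 0 and, in edgeR, 4. HOMO minus HET (1) became 6 by quantile, 20 by fibre genes, 2 with only the groups compared and 2 in DESeq2. HOMO 7 minus 3 dpi (4) became 2 with either form of the replicate block. HOMO 21 minus 7 dpi (7) became 4 by fibre genes and 3 with only the groups compared, and WT 21 minus 7 dpi (8) became 14 with the latter. Saline HOMO minus WT at 3 dpi (0) became 15 by fibre genes and 1 with only the groups compared. At 7 dpi (0) it became 1 with pseudocount 4, 8 by fibre genes, 2 with only the groups compared, 1 in edgeR and 2 in DESeq2. At 21 dpi (1) it became 0 with pseudocount 0.25, 2 with pseudocount 4, 0 by quantile, 20 by fibre genes, 4 with only the groups compared, 0 with the replicate block and 0 in edgeR. Saline HET minus WT (0) became 1 in edgeR and 1 in DESeq2. Isoform pairs (0 of 70 by the exact permutation test) became 42 in limma, 40 with pseudocount 4 and 43 with the replicate block.

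Leaving out each library gave, for AAV responses, 0 to 0 in WT at 3 and at 7 dpi, 17 to 24 in WT at 21 dpi, 21 to 30, 22 to 28 and 34 to 36 in HOMO and 22 to 26 in HET. Differences ranged over 5 to 21, 5 to 10 and 2 to 25 for HOMO minus WT, 9 to 20 for HET minus WT, 1 to 2 for HOMO minus HET, 2 to 4 and 3 to 28 between HOMO days and 4 to 16 between WT days. Saline comparisons ranged over 0 to 0, 0 to 1, 0 to 0 and 0 to 1, and isoform pairs stayed at 0. Low counts limit the precision of members such as Hk3, the second Aldoa gene and Pygl.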
